A study of Mus musculus with 8 samples.

Results

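Antiviral interferon-stimulated effector genes, 39 in number of the 36806 genes in each deposited table, were followed in mouse macrophages across 7 stimuli. The rule that picks them is a list of gene symbols with no threshold on expression, drawn up with earlier results of these data known, and each symbol matched 1 gene identifier. The cells were primary bone marrow-derived macrophages of C57BL/6 mice on the 7th day of differentiation, grown in medium that contained L929-conditioned medium, the customary source of the macrophage growth factor CSF1. Poly(A) RNA was sequenced from 1 untreated culture and from cultures given a single agent for 4 h. The agents were the type II interferon IFNg at 100 ng/ml, the type 2 cytokine IL4 at 10 ng/ml, the inflammatory cytokines TNFa at 10 ng/ml and IL1b at 10 ng/ml, the growth factor TGFb1 at 1 ng/ml, the Tlr2 and Tlr6 ligand MALP2 at 1 ng/ml, and the Tlr9 ligand CpG DNA at 100 nM. Each condition is 1 library, so no difference given here has a replicate check, and nothing in the labels says whether a culture came from 1 mouse or from pooled mice. The RNA is of a bulk culture, in which fewer cells of a type and less RNA per cell cannot be told apart.

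Cells that meet a virus release type I interferon, which binds the receptor of Ifnar1 and Ifnar2, activates the kinases Jak1 and Tyk2, and leads to the complex ISGF3, which holds Stat2 and Irf9. That complex binds the interferon-stimulated response element and switches on the effector genes. IFNg uses another receptor, of Ifngr1 and Ifngr2, and acts chiefly at gamma-activated sites, with Irf1 as a further factor that reads response elements. The effectors block viral entry, sense and degrade viral RNA, halt translation or tag proteins, and macrophages are known to keep them at a basal level through low, steady interferon signalling.

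The response element can be read in the promoters of many of the effectors, and its letters are shown because ISGF3 and the IRF factors recognise them. A RefSeq promoter entry on GRCm38.p6, from 250 bases before to 50 bases after a gene's start, was matched for 28 of the 39 genes. The core was searched as GAAANNGAAA on both strands, with overlapping matches allowed, so that on the opposite strand it reads as TTTC, any 2 bases, TTTC. In the following 8 sequences, printed 5′ to 3′ in the direction of the gene, a core lies wholly before the start, with 20 bases on either side, cut at the gene's start for Oas1a, and capitals mark the core or the merged overlapping cores. The intervals on GRCm38.p6 are chr8:71537567-71537622 (minus strand) for Bst2, chr19:34640765-34640833 (plus) for Ifit1, chr19:34583353-34583436 (plus) for Ifit3, chr4:156200855-156200916 (minus) for Isg15, chr5:120907526-120907565 (minus) for Oas1a, chr5:120777705-120777754 (minus) for Oas3, chr12:26456543-26456592 (minus) for Rsad2 and chr7:104465200-104465249 (minus) for Trim30a.
Bst2: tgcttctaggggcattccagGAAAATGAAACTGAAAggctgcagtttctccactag
Ifit1: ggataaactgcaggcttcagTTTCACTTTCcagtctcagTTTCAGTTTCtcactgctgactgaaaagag
Ifit3: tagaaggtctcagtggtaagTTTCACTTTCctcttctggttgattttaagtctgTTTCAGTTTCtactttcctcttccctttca
Isg15: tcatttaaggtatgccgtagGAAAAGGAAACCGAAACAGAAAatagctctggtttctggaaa
Oas1a: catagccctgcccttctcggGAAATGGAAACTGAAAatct
Oas3: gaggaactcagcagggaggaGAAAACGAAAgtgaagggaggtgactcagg
Rsad2: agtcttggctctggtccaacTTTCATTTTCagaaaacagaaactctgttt
Trim30a: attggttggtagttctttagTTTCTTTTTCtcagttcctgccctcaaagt
Isg15 carried 3 overlapping cores, which begin 78, 72 and 66 bases before its start. Bst2 and Oas1a carried 2 overlapping cores each, and Ifit1 and Ifit3 carried 2 separate ones each. The core was present anywhere in the window in 12 of the 28 matched genes (42.9%), namely these 8 and Ddx58, Ifih1, Eif2ak2 and Ifitm3, against 1079 of 27025 genes of the whole promoter table (3.99%). The gamma-activated site, searched as TTCNNNGAA, was present in 8 of the 28 (28.6%), which were Ifit2, Oas1a, Isg20, Eif2ak2, Adar, Bst2, Ifitm3 and Ifi35, against 2582 of 27025 (9.55%). A match is a run of letters in a short window and not a measured binding site.

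Levels are given as FPKM, fragments per length of transcript scaled to the total of mapped fragments, so that different genes can be set beside each other. Each stimulus was deposited in its own table, scaled separately by the authors, with its own copy of the untreated values. Levels across all 8 libraries were therefore joined through those untreated values to the scale of the TNFa table, with table factors of 0.9615 to 1.0595. Changes are log2 of (stimulated FPKM + 1) over (untreated FPKM + 1) within 1 table, and a gene is called higher or lower when this reached 1 in size, a 2-fold change on the FPKM + 1 scale, with an FPKM of at least 1 in either library. The addition of 1 understates the changes of genes at low FPKM. The absolute depth is unknown; 1 fragment was worth 1.04 to 1.44 times the untreated FPKM in the other stimulated libraries and 2.04 times in the IFNg library, which was therefore the shallowest. Of 8 macrophage markers, Csf1r, Adgre1, Cd68, Itgam and Cd14 were present in every library, with Csf1r at 1045 to 1543 FPKM. Cd14 ran from 288 FPKM with IL4 to 2324 FPKM with MALP2. Mertk was at 1.18 to 4.56 FPKM with TNFa, IL1b, MALP2 and CpG against 23.1 FPKM untreated. Fcgr1 was at 319.5 FPKM untreated, 1233 with IFNg and 116 with IL4. Lyz2 had no valid untreated value. Of 8 markers of plasmacytoid dendritic cells, which are strong makers of type I interferon, 6 were at 1.04 FPKM or less in every library, with the defining marker Siglech at 0.487 to 0.865 FPKM. The other two were Tcf4, at 18.9 to 41.5 FPKM, and Runx2, at 2.04 to 15.8 FPKM, which was higher with IL4 and TGFb1, at 1.02 and 1.65. The 8 summed to 41.1 FPKM untreated and 22.9 to 49.9 FPKM with the stimuli, and their part in the effectors' values was not tested. Of the B, T and NK cell markers, 8 of 10 were below 1 FPKM in every library, and Cd79b and Cd4 were not.

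All 39 effectors were expressed in untreated macrophages. Their untreated levels ran from 3.52 FPKM for Samd9l to 2353 FPKM for Ifitm3, with a median of 47.1 FPKM, beside a median of 14.0 FPKM over the 12340 genes at 1 FPKM or more. The filter on low values removed none of them. IFNg gave the highest level of the 8 libraries for 38 of the 39, and IL4 gave the lowest for 32. For 31 genes both held. The same shares over all genes were not counted. Oas1b was the exception at the top, with its highest level in the untreated library. The exceptions at the bottom were Ifih1, lowest with IL1b, Eif2ak2 and Samd9l, lowest with MALP2, and Zbp1, Usp18, Ifi35 and Tor3a, lowest with TGFb1.

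**Figure D1:**
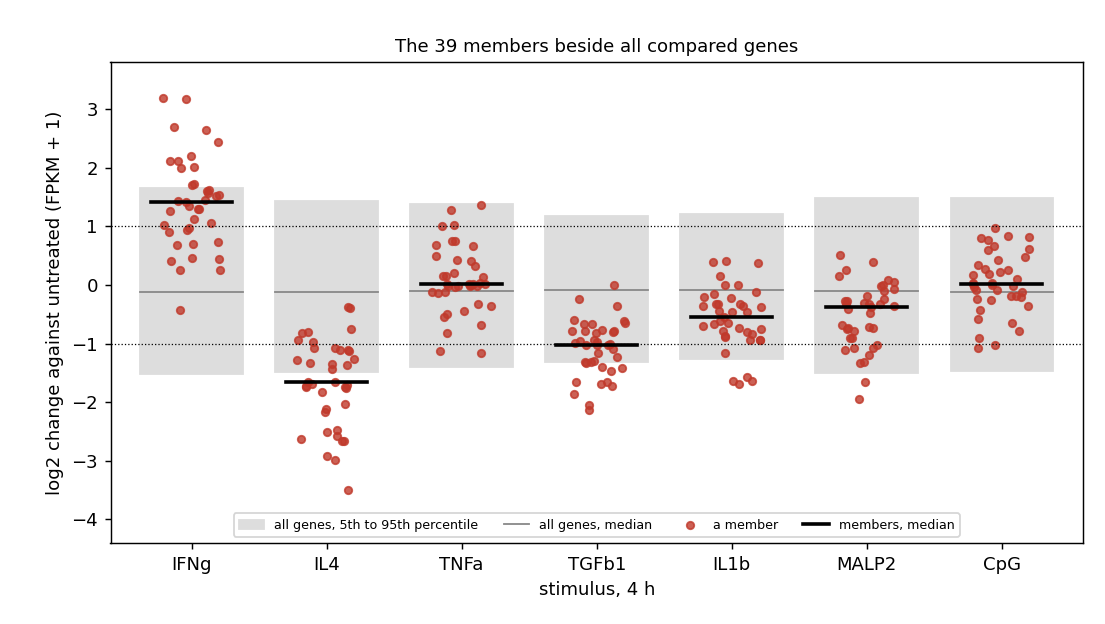
Log2 change of (FPKM + 1) against the untreated library (vertical axis) for each of the 39 effector genes (points) with each stimulus at 4 h (horizontal axis, 1 library each); black bars are the medians of the effectors, grey boxes the 5th to 95th percentile of all compared genes, grey lines their medians and dotted lines the 2-fold limits. The effectors' median is 1.41 with IFNg, -1.66 with IL4 and -1.02 with TGFb1, and 0.02 and 0.01 with TNFa and CpG.

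With IFNg, 27 of the 39 effectors were higher and none was lower. Over the 12813 genes compared, 10.7% were higher and 12.7% lower. The effectors' median log2 change was 1.41, beside -0.11 over those genes, and the changes ran from -0.43 for Oas1b to 3.20 for Mx1. The authors' deposited table called 20 of the 39 as changed, 18 of them among the 27, beside 18.9% of the compared genes called in either direction. The authors' deposited confidence bounds of the untreated and IFNg levels did not overlap for 12 effectors. The share of all compared genes with bounds apart was not counted for any stimulus. The bounds describe the fit of 1 library and not the spread between cultures, and where they are printed they stand on the common scale. Printed untreated bounds are those of the TNFa comparison, whereas overlap was judged within each stimulus's own comparison.

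With IL4, 32 effectors were lower and none was higher, against 11.9% lower and 9.86% higher among the compared genes. All 39 were below their untreated level. The median change was -1.66, and the changes ran from -3.49 for Ifit3 to -0.37 for Eif2ak2. The authors' deposited table called 25 of the 39, all of them among the 32, beside 19.2% of the compared genes. The authors' deposited bounds lay apart for 22. The 7 genes within 2-fold were Eif2ak2, Ifi35, Tor3a, Ifih1, Dhx58, Samd9l and Usp18, 3 of which sense or bind viral RNA.

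TGFb1 lay in the same direction with smaller differences. With it 20 effectors were lower and none was higher, against 9.15% lower and 7.15% higher among the compared genes, and the median change was -1.02. Only Eif2ak2, at 0.00, was not below its untreated level, and Oas3, at -2.14, was the lowest. The authors' deposited table called 18 of the 39, 15 of them among the 20, beside 17.5% of the compared genes. The level with TGFb1 was above that with IL4 for 35 effectors, the exceptions being Zbp1, Usp18, Ifi35 and Tor3a. There were 18 effectors lower with both agents, and both comparisons rest on the same untreated library. The share of all compared genes lower with both was not counted.

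The other 4 stimuli gave fewer differences of 2-fold. With TNFa, 4 effectors were higher (Ifit1, Rsad2, Mx1 and Mx2) and 2 were lower (Oas3 and Sp100), against 8.92% and 10.4% of the compared genes, and the median change was 0.02. With CpG none was higher and 2 were lower (Ifi44 and Sp100), against 9.43% and 11.2%, and the median change was 0.01. Centred on the median gene, Ifi44 and Sp100 were at -0.97 and -0.92, no longer past 2-fold, and Usp18 was past it at 1.09. With MALP2 none was higher and 9 were lower (Ifit2, Ifit3, Oas3, Oasl2, Cmpk2, Trim25, Ifi44, Samd9l and Sp100), against 9.53% and 11.7%, with a median of -0.38. With IL1b none was higher and 5 were lower (Oas3, Oasl2, Zbp1, Ifi44 and Sp100), against 7.29% and 8.57%, with a median of -0.55. With TNFa and CpG the effectors' counts were thus near or below the background in both directions.

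In the authors' deposited table for TNFa, 3 effectors were called (Oasl1, Mx1 and Sp100) beside 17.9% of the compared genes. In the authors' deposited table for CpG, 3 were called (Mx1, Ifi44 and Sp100) beside 18.0%. The authors' deposited tables for MALP2 and IL1b called 6 effectors beside 17.7% and 8 beside 16.8%. Sp100 was called in all 7 of the authors' deposited tables and Ifi44 in 6. No call stood in any of the authors' deposited tables for Ifih1, Eif2ak2, Usp18, Dtx3l, Parp12, Bst2, Lgals3bp and Trim30a.

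**Figure D2:**
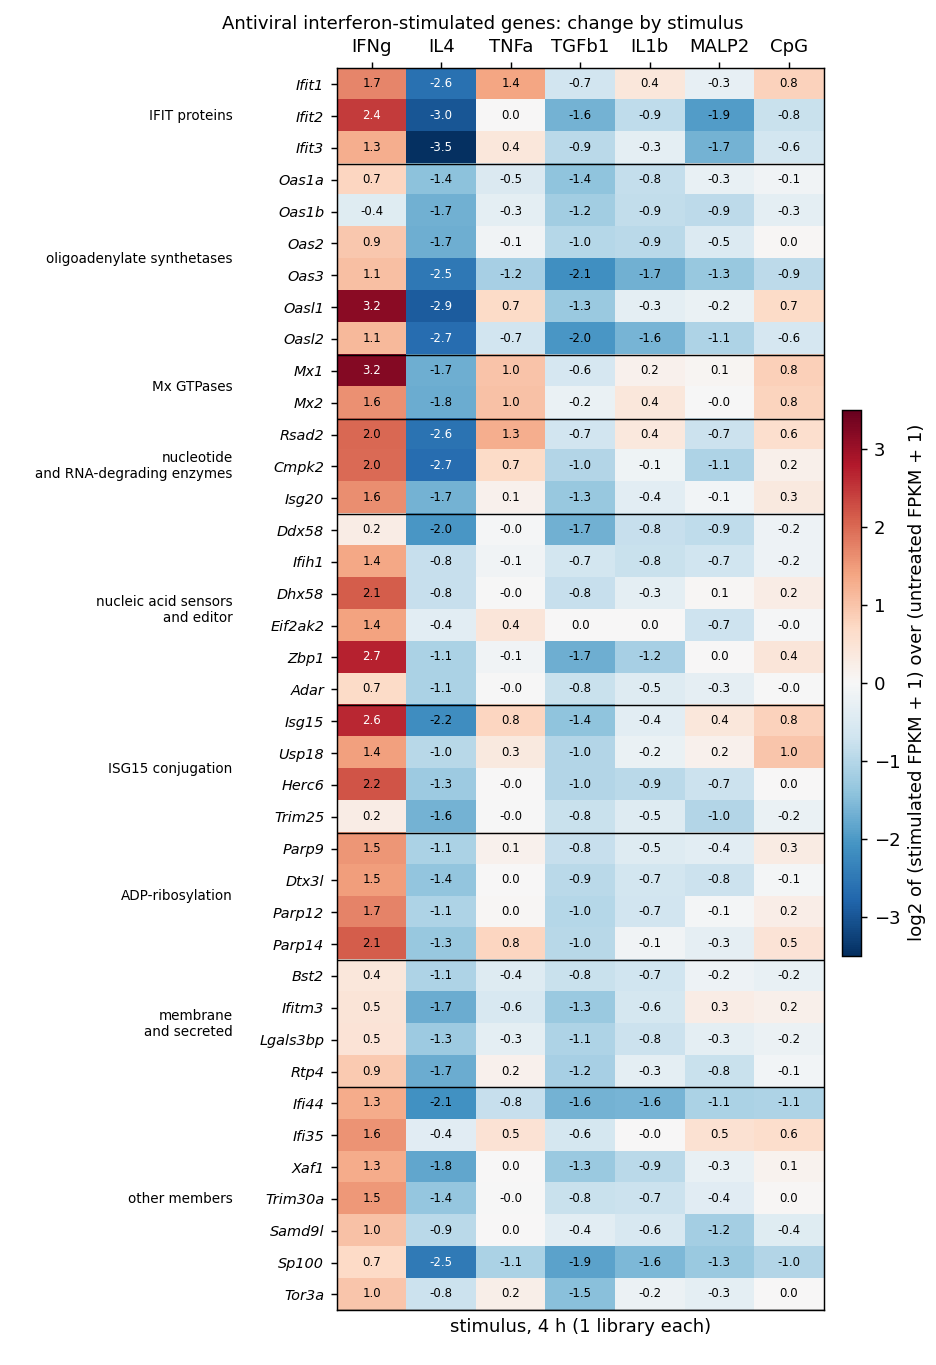
Log2 change of (FPKM + 1) against the untreated library for the 39 effector genes (rows, grouped by role) with the 7 stimuli (columns, 1 library each); each cell prints its value to 1 decimal, red is above and blue below untreated. The IFNg column is red but for Oas1b, and the IL4 column is blue throughout. In all 6 columns other than IFNg, 12 of the genes are below untreated. Of these, Oas3, Ifi44 and Sp100 are 2-fold or more below it in at least 5 columns.

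The IFIT proteins bind viral RNA through its 5′ end or form complexes with one another, and their 3 genes lie together on chromosome 19 (mm9, 34625184 to 34650909 for Ifit2, 34658021 to 34663221 for Ifit3 and 34715361 to 34724499 for Ifit1). Ifit2 stood at 30.3 FPKM untreated, 169 with IFNg, 2.98 with IL4, 30.8 with TNFa, 8.98 with TGFb1, 16.0 with IL1b, 7.10 with MALP2 and 17.1 with CpG. It was higher by the 2-fold rule with IFNg alone, and its level was 56.9 times as high with IFNg as with IL4. Ifit3 stood at 71.5 FPKM untreated, 174 with IFNg, 5.50 with IL4, 95.2 with TNFa, 36.9 with TGFb1, 56.8 with IL1b, 21.9 with MALP2 and 45.5 with CpG. Its difference with IL4, -3.49, was the furthest below 0 of any effector with any stimulus (authors' deposited q-value of 7.8e-08). Ifit1 stood at 32.5 FPKM untreated, 108 with IFNg, 4.47 with IL4, 85.7 with TNFa, 20.0 with TGFb1, 42.8 with IL1b, 26.2 with MALP2 and 57.9 with CpG. Unlike its neighbours Ifit2 and Ifit3, it was above its untreated level with IL1b and CpG, by 0.39 and 0.82. With TNFa its difference was 1.37, the highest of the 39, but the bounds overlapped (14.3 to 50.7 untreated, 37.1 to 134 with TNFa) and the authors' deposited table did not call it, with a q-value of 0.079. Mouse Ifit3 has a near-identical copy, Ifit3b, and reads may be shared between them.

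Active oligoadenylate synthetases make the messenger that activates the ribonuclease RNase L when they bind double-stranded RNA. Members of the family differ in that activity. The 6 genes are on chromosome 5. With IFNg, 3 of the 6 were higher (Oasl1 at 3.17, Oasl2 at 1.13 and Oas3 at 1.06), with IL4 all 6 were lower, and with TGFb1 5 were lower, Oas2 lying just inside the limit. Oasl1 had the widest span of all 39 effectors, at 17.3 FPKM untreated, 165 with IFNg, 1.45 with IL4, 28.3 with TNFa, 6.42 with TGFb1, 13.3 with IL1b, 14.5 with MALP2 and 28.2 with CpG, a ratio of 114 between IFNg and IL4. Its IFNg bounds, 107 to 222, did not overlap the untreated bounds of 13.4 to 21.1. Oas3 stood at 69.1 FPKM untreated, 146 with IFNg, 11.4 with IL4, 30.4 with TNFa, 14.9 with TGFb1, 20.8 with IL1b, 26.9 with MALP2 and 36.3 with CpG. It was below its untreated level in each of the 6 libraries other than IFNg, by 2-fold or more in 5 of them, CpG being the exception at -0.91. Oas1b stood at 5.69 FPKM untreated, 3.94 with IFNg, 1.11 with IL4, 4.32 with TNFa, 1.87 with TGFb1, 2.68 with IL1b, 2.56 with MALP2 and 4.23 with CpG. It alone was below untreated with all 7 stimuli, and its IFNg difference of -0.43 lay within overlapping bounds (2.30 to 9.09 untreated, 1.11 to 6.77 with IFNg). Oas1a, on the same chromosome, had 156 FPKM untreated and 262 with IFNg, a difference of 0.74. The Oas1 genes are a family of similar copies, and their separate values are uncertain.

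Mx proteins are dynamin-like GTPases that trap viral components. Mx1 stood at 18.5 FPKM untreated, 179 with IFNg, 4.94 with IL4, 38.2 with TNFa, 12.0 with TGFb1, 20.8 with IL1b, 19.7 with MALP2 and 33.6 with CpG. It was the only effector above its untreated level with all of TNFa, IL1b, MALP2 and CpG. With IL1b and MALP2 it was above by only 0.16 and 0.08, with overlapping bounds. Mx2 with MALP2 and Ifi35 with IL1b were just below untreated. Centred on the median gene, these 2 values were 0.05 and 0.07. The bounds of Mx1 lay apart with TNFa (14.0 to 23.1 untreated, 29.5 to 46.8 with TNFa) and with CpG (25.6 to 41.6). The authors' deposited q-values were 3e-04 and 0.0083. Its difference with TNFa was just at the limit, at 1.00, and that with CpG was 0.83. Mx2 stood lower, at 4.90 FPKM untreated, 17.1 with IFNg, 0.781 with IL4, 11.0 with TNFa, 4.05 with TGFb1, 6.85 with IL1b, 4.83 with MALP2 and 9.08 with CpG. Both lie on chromosome 16 (mm9, 97668642 to 97684514 for Mx1 and 97757690 to 97782506 for Mx2), and reads may be shared between them. Laboratory strains such as C57BL/6 are known to carry a defective Mx1 allele, so the level of its RNA does not give the level of a working protein.

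Rsad2 (viperin) makes a chain-terminating nucleotide from CTP, Cmpk2 is its neighbour on chromosome 12 and a mitochondrial nucleotide kinase, and Isg20 is an exonuclease that degrades RNA. All 3 were higher with IFNg and lower with IL4. Rsad2 stood at 28.3 FPKM untreated, 117 with IFNg, 3.91 with IL4, 70.1 with TNFa, 17.5 with TGFb1, 36.9 with IL1b, 16.5 with MALP2 and 43.2 with CpG. It was the effector with the second highest difference with TNFa, 1.28, with overlapping bounds and an authors' deposited q-value of 0.07. Cmpk2 had 28.9 FPKM untreated, 118 with IFNg and 3.76 with IL4. Isg20 stood at 14.6 FPKM untreated, 47.0 with IFNg, 3.98 with IL4, 16.3 with TNFa, 5.22 with TGFb1, 11.0 with IL1b, 13.6 with MALP2 and 18.7 with CpG, with a difference of at most 0.38 in size for TNFa, IL1b, MALP2 and CpG.

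**Figure D3:**
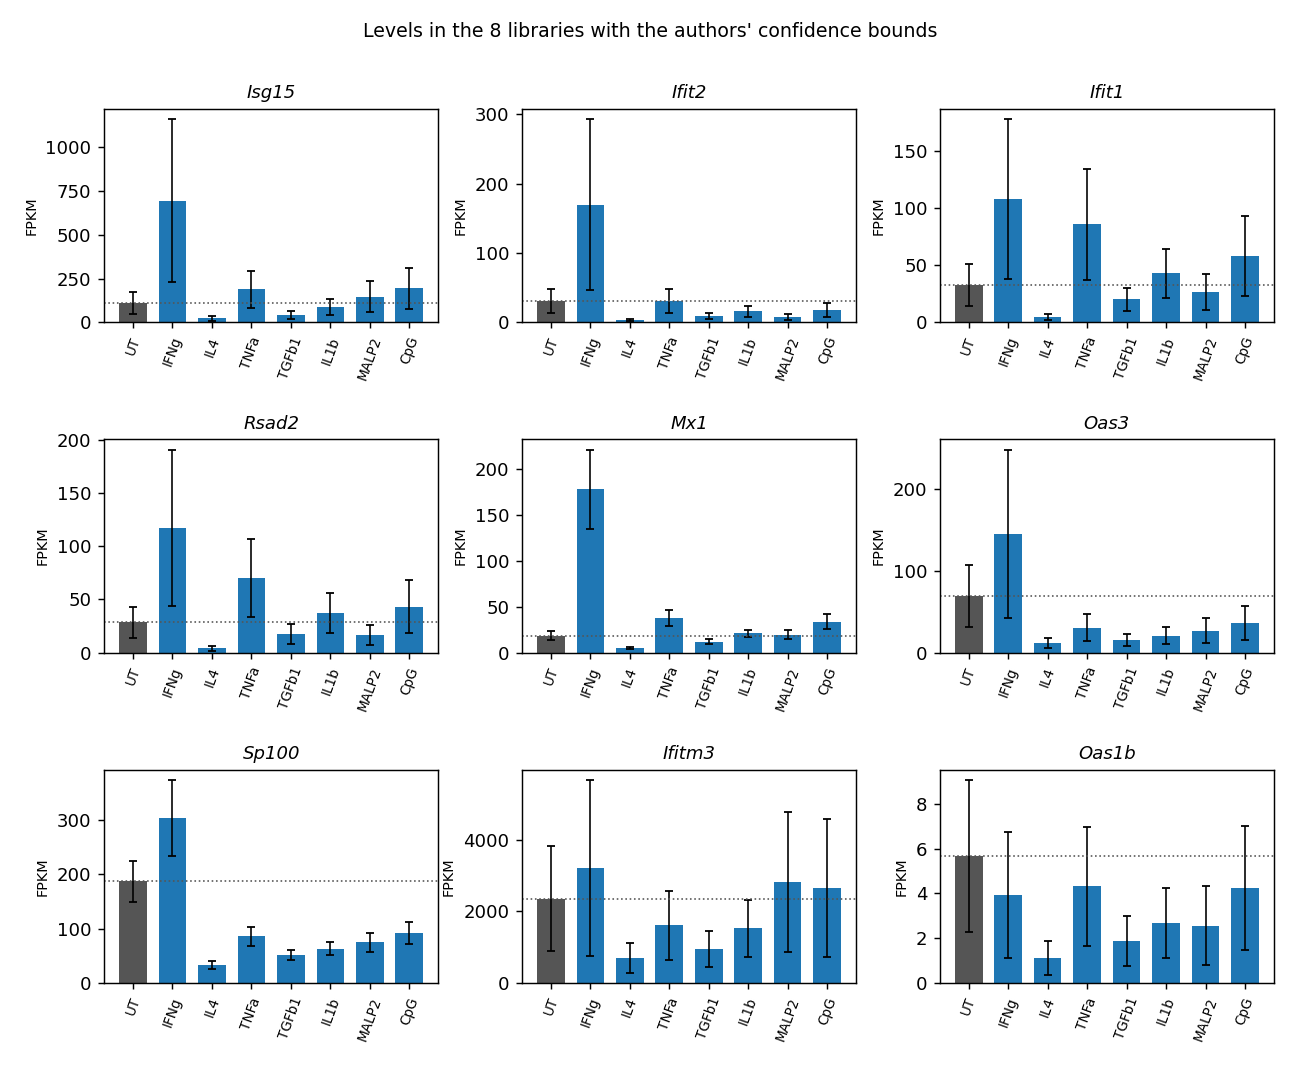
FPKM (vertical axes, each starting at 0 with its own range) of 9 effector genes in the 8 libraries, joined to a common scale; bars are 1 library each, error bars are the authors' deposited confidence bounds, which are not a spread between cultures, and dotted lines mark the untreated level. The untreated bounds are those of the TNFa comparison. IFNg is the highest bar in every panel but that of Oas1b, and IL4 is the lowest bar in all 9.

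Among the sensors of foreign nucleic acid, Ddx58 (RIG-I), Ifih1 (MDA5) and the related Dhx58 (LGP2) recognise viral RNA in the cytoplasm. Eif2ak2 (PKR) halts translation, Zbp1 senses Z-form nucleic acid and can start cell death, and Adar edits adenosines in double-stranded RNA. With IFNg 4 of the 6 were higher, and Ddx58 and Adar were within 2-fold. Zbp1 stood at 73.3 FPKM untreated, 483 with IFNg, 33.4 with IL4, 66.8 with TNFa, 21.6 with TGFb1, 32.2 with IL1b, 73.4 with MALP2 and 99.1 with CpG. Its bounds with IFNg, 275 to 691, lay above the untreated bounds of 46.0 to 100.5, and its lowest level was with TGFb1. Ddx58 stood at 60.9 FPKM untreated, 72.8 with IFNg, 14.2 with IL4, 59.4 with TNFa, 18.3 with TGFb1, 34.5 with IL1b, 32.1 with MALP2 and 53.1 with CpG. It was thus far below untreated with IL4 and TGFb1, by -2.03 and -1.69, and 0.25 above it with IFNg. Ifih1, by contrast, had 8.35 FPKM untreated and 23.0 with IFNg, with changes of -0.80 to -0.11 for the other stimuli, and no call in the authors' deposited tables. Eif2ak2 stood at 8.82 FPKM untreated, 25.1 with IFNg, 6.63 with IL4, 12.1 with TNFa, 8.83 with TGFb1, 8.84 with IL1b, 4.94 with MALP2 and 8.53 with CpG, and was the least different of the 39 with IL4 and TGFb1. Dhx58, at 64.5 FPKM untreated and 283 with IFNg, shares its deposited mm9 locus with 5 other genes, Cnp, Dnajc7, Zfp385c, Nkiras2 and Dhx58os, and its value is uncertain for that reason. The value of Eif2ak2 is uncertain likewise, since its locus holds 3 other genes, among them Sult6b1, and 1 other gene each lies in the loci of Oasl1, Ifi35 and Trim30a.

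ISG15 is a ubiquitin-like protein, which Herc6 attaches to other proteins in the mouse, and Usp18 removes it and also restrains the interferon receptor. Trim25 is a ubiquitin ligase known to act on RIG-I. Isg15 stood at 111 FPKM untreated, 696 with IFNg, 23.9 with IL4, 189 with TNFa, 40.9 with TGFb1, 86.5 with IL1b, 147 with MALP2 and 195 with CpG. Its bounds with IFNg, 232 to 1161, did not overlap the untreated bounds of 48.8 to 173, while those with TNFa, MALP2 and CpG did. Usp18 stood at 42.4 FPKM untreated, 117 with IFNg, 21.1 with IL4, 53.6 with TNFa, 20.4 with TGFb1, 36.2 with IL1b, 47.5 with MALP2 and 84.8 with CpG. Its CpG difference of 0.98 was the highest of the 39 with that agent and lay just inside the limit, with overlapping bounds and an authors' deposited q-value of 0.31. Trim25 stood at 76.8 FPKM untreated, 91.7 with IFNg, 23.8 with IL4, 75.6 with TNFa, 44.4 with TGFb1, 56.0 with IL1b, 37.2 with MALP2 and 65.0 with CpG. Like Ddx58, whose product it modifies, Trim25 was 0.25 above untreated with IFNg and well below it with IL4, at -1.65. Herc6 had 6.92 FPKM untreated and 35.7 with IFNg, a difference of 2.20.

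Of the genes of ADP-ribosylation, Parp12 and Parp14 attach ADP-ribose to proteins, and Parp9 works as a partner of the ubiquitin ligase Dtx3l. All 4 were higher with IFNg, by 1.46 to 2.12, and lower with IL4, by -1.37 to -1.08. None of the 4 reached 2-fold with TGFb1, where they lay between -0.99 and -0.81, or with the other 4 stimuli. Parp14 stood at 47.1 FPKM untreated, 207 with IFNg, 18.2 with IL4, 79.7 with TNFa, 23.6 with TGFb1, 43.3 with IL1b, 37.6 with MALP2 and 66.2 with CpG. Dtx3l stood at 35.9 FPKM untreated, 101 with IFNg, 13.3 with IL4, 36.1 with TNFa, 18.1 with TGFb1, 22.5 with IL1b, 21.0 with MALP2 and 33.9 with CpG. Parp9 and Dtx3l share 1 deposited locus (mm9, chromosome 16, 35926597 to 35981225), and with no statement of strandedness at hand their reads cannot be told apart where they overlap.

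Among the membrane and secreted effectors are the 3 most abundant of the 39 in the untreated library, Ifitm3, Lgals3bp and Bst2, and with IFNg none of the 4 reached 2-fold. Ifitm3 blocks viral fusion in endosomes, Bst2 (tetherin) holds budding virus at the surface, Lgals3bp is a secreted glycoprotein, and Rtp4 is a receptor transport protein. Bst2 stood at 484 FPKM untreated, 643 with IFNg, 229 with IL4, 356 with TNFa, 280.0 with TGFb1, 298 with IL1b, 423 with MALP2 and 406 with CpG. Rtp4 stood at 94.4 FPKM untreated, 179 with IFNg, 27.6 with IL4, 106 with TNFa, 41.8 with TGFb1, 74.8 with IL1b, 54.7 with MALP2 and 88.4 with CpG. With IFNg the 4 differences ran from 0.41 for Bst2 to 0.91 for Rtp4, whereas with IL4 all 4 were lower. The bounds with IL4 overlapped the untreated ones for all 4, and the authors' deposited table called only Ifitm3 and Rtp4. Centred on the median gene, Bst2 with IL4 was at -0.98, no longer past 2-fold. Ifitm3 reached 3212 FPKM with IFNg from 2353 untreated and 705 with IL4, and its IFNg bounds, 748 to 5677, overlapped the untreated bounds of 887 to 3819.

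The last 7 effectors have varied roles: Sp100 organises nuclear bodies that silence viral DNA, Xaf1 promotes cell death, Samd9l restrains poxviruses, Trim30a is a ligase that dampens inflammatory signals, Ifi44 and Ifi35 bear on interferon feedback, and Tor3a is an interferon-responsive torsin. With IFNg 5 of the 7 were higher. Ifi35 stood at 53.4 FPKM untreated, 160 with IFNg, 40.3 with IL4, 75.9 with TNFa, 34.7 with TGFb1, 53.2 with IL1b, 77.2 with MALP2 and 81.8 with CpG, and its MALP2 difference of 0.52 was the highest of the 39 with that ligand. Sp100 stood at 187 FPKM untreated, 305 with IFNg, 33.0 with IL4, 85.7 with TNFa, 51.0 with TGFb1, 62.6 with IL1b, 75.2 with MALP2 and 91.9 with CpG. It was lower by 2-fold or more in all 6 libraries other than IFNg, with bounds apart from untreated in each, and the authors' deposited q-value was 0.00015 with CpG and 2.5e-06 with TNFa. Ifi44 stood at 5.39 FPKM untreated, 14.9 with IFNg, 0.496 with IL4, 2.62 with TNFa, 1.05 with TGFb1, 1.08 with IL1b, 1.96 with MALP2 and 2.04 with CpG. Its lower values, near 1 FPKM, are those that an added pseudocount compresses most. The deposited locus of Sp100 also holds Sp140 and other genes, and reads of that family may be shared.

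The order of the stimuli was also read without the untreated library, by setting each stimulated library against the median of the other 6. On that reference, IFNg had 36 effectors higher and none lower (7.74% and 3.49% of all compared genes), and IL4 had none higher and 29 lower (4.89% and 5.88%). TGFb1 had none higher and 17 lower (3.57% and 4.02%), with a median of -0.90. TNFa had 5 higher, Ifit1, Ifit2, Ifit3, Cmpk2 and Rsad2, and none lower (1.60% and 0.844%), with a median of 0.56. With MALP2, 4 of those genes, Ifit2, Ifit3, Cmpk2 and Rsad2, were the lower ones and none was higher (3.25% higher and 1.50% lower among all compared genes). CpG had 1 higher, Usp18, and none lower (3.65% and 0.836%), with a median of 0.57. IL1b had none higher and 1 lower, Zbp1 (1.24% and 1.12%).

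Pairs of stimulated libraries were also compared directly. Between IFNg and IL4 all 39 were higher with IFNg, against 11.0% of genes higher and 9.54% lower, from 1.23 for Oas1b to 6.08 for Oasl1, with a median of 2.86. Between IFNg and CpG, 25 were higher with IFNg and none lower, against 7.35% and 4.71%, and Oas1b alone was below 0, at -0.08. The 2 inflammatory cytokines differed by a smaller amount in 1 direction, since all 39 were above 0 for TNFa against IL1b, with a median of 0.66. Isg15, Oasl1 and Zbp1 were higher with TNFa by 2-fold, at 1.12, 1.03 and 1.03, and none was lower, against 1.69% and 1.24% of genes. For CpG against MALP2, 37 were above 0, the exceptions being Ifitm3 at -0.09 and Bst2 at -0.06, and the median was 0.52. Rsad2, Cmpk2, Ifit2, Ifit1 and Ifit3 were higher with CpG, by 1.33, 1.27, 1.16, 1.11 and 1.02, and none was lower, against 1.17% and 0.730%. The 2 Toll-like receptor ligands, one read at the cell surface and the other in endosomes, were given at 1 ng/ml and 100 nM, so their doses are not matched.

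**Figure D4:**
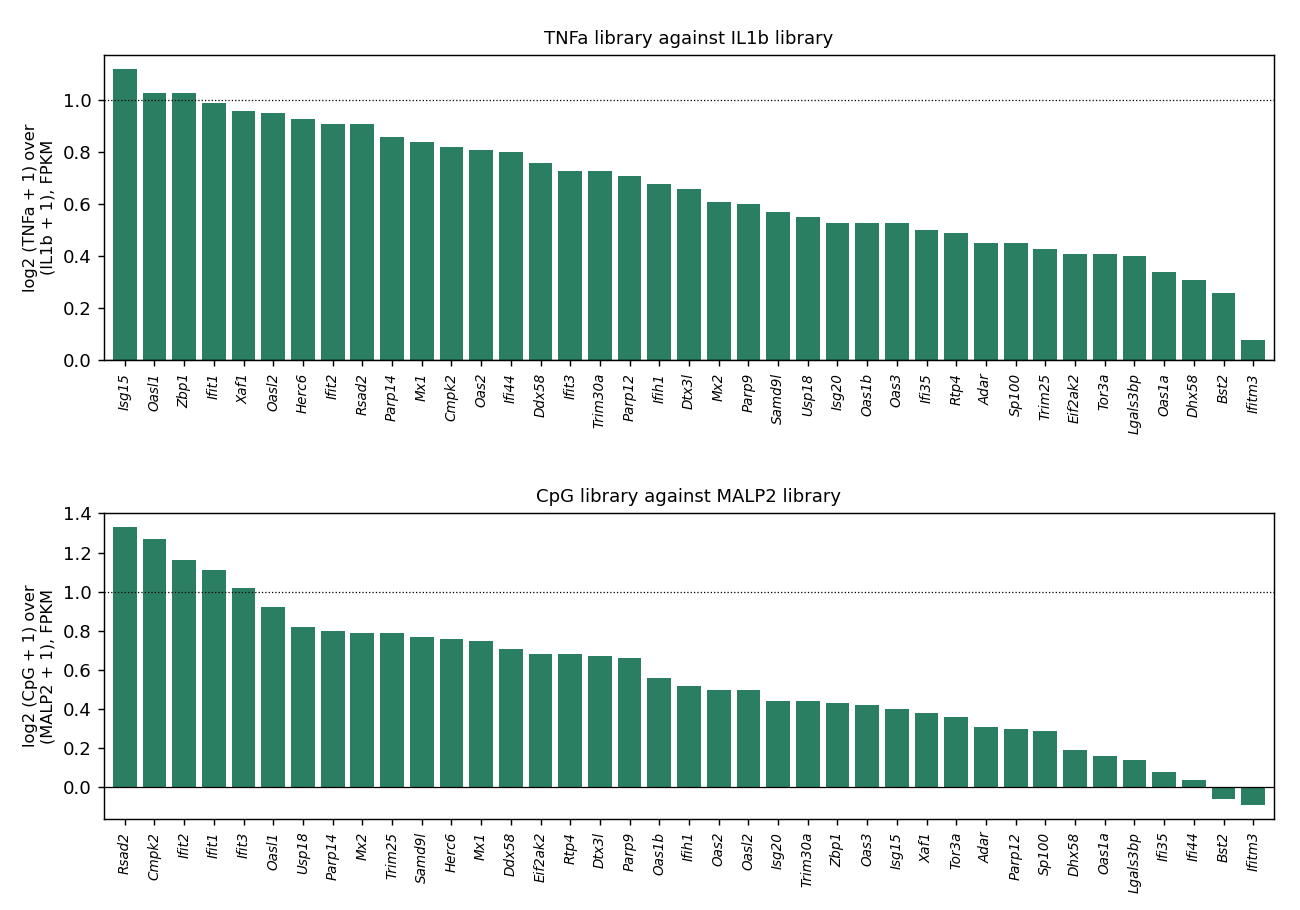
Log2 ratio of (FPKM + 1) between 2 stimulated libraries (vertical axes) for the 39 effector genes in descending order (horizontal axes), TNFa against IL1b above and CpG against MALP2 below; bars are single values with no replicate and dotted lines the 2-fold limit. All 39 bars are above 0 for TNFa against IL1b, and all but those of Bst2 and Ifitm3 for CpG against MALP2.

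Genes of the interferon pathway that are not effectors were set beside them from a list of 21. Of the ligands, Ifnb1 was at 0.0526 FPKM untreated, 1.96 with IFNg and at most 0.226 with the other stimuli, being listed at 0 with IL4, and Ifna2, Ifna4 and Ifng were at or near 0 in every library. The receptor genes varied. Ifnar1, at 54.7 FPKM untreated, was above that level with all 7 stimuli, by 0.68 with TGFb1 to 2.01 with CpG. With IL4 it was at 96.3 FPKM, a difference of 0.81 and within 2-fold. Ifngr1 was 119 FPKM untreated and 46.7 with IFNg. Ifnar2 stood at 0.33 with IFNg and -0.18 with IL4, and Ifngr2 at 0.39 and 0.24. Of the kinases, Tyk2 was lower with IL4 and TGFb1, at -1.08 and -1.14, whereas Jak2 was higher with all 7 stimuli, by 1.09 to 3.36. Stat2, a partner of Irf9 in ISGF3, was lower with IL4, TGFb1 and MALP2, at -1.88, -1.26 and -1.26, and Irf9 was lower with IL4 at -1.24 and stood at -0.88 with TGFb1. Irf7, the amplifier of type I interferon, was 235 FPKM untreated, 558 with IFNg, 60.0 with IL4 and 48.4 with TGFb1. Irf1 was 80.3 FPKM untreated and 1749 with IFNg. Among the inhibitors, Socs1 was 0.863 FPKM untreated, 275 with IFNg and 90.5 with IL4. Over the list, 9 of 18 measured genes were higher and 1 lower with IFNg, beside 10.7% and 12.7% of all compared genes. With IL4, 2 of 17 were higher and 7 lower, beside 9.86% and 11.9%. With TGFb1, 1 of 16 was higher and 4 lower, beside 7.15% and 9.15%. Of 17 measured with each of the remaining stimuli, TNFa had 4 higher and 0 lower, beside 8.92% and 10.4%. IL1b had 3 and 1, beside 7.29% and 8.57%. MALP2 had 4 and 1, beside 9.53% and 11.7%, and CpG had 5 and 0, beside 9.43% and 11.2%.

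GTPases that IFNg is known to switch on, of the Gbp and Irg families, had 7 of 8 listed genes matched. With IFNg all 7 were higher, beside 10.7% of all compared genes, with a median of 4.59, against 1.41 for the 39 effectors. Gbp2, which acts on the membranes of intracellular microbes, went from 24.2 to 4575 FPKM. With IL4, 5 of 6 measured were lower with a median of -1.36, beside 11.9% of all compared genes. With TGFb1, 4 of 6 were lower with a median of -1.19, beside 9.15%. They thus lay on the same side of untreated as the effectors with IFNg, IL4 and TGFb1.

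Changes were also read by whether the promoter window held a response element core, as a description with no test. With IFNg the 12 genes with a core had a median change of 1.31 (range 0.25 to 2.64) and the 16 without had 1.38 (0.25 to 3.17). With IL4 the medians were -1.88 and -1.65, and with TGFb1 -0.86 and -1.06. Isg15, with its 3 overlapping cores, was at 2.64 with IFNg, whereas Bst2, with 2 overlapping cores, was at 0.41 and Oas1a, also with 2, at 0.74. Ifit1, Ifit3 and Ifitm3, with 2 separate cores each, were at 1.70, 1.27 and 0.45. Genes with 1 core ran from 0.25 for Ddx58 to 2.01 for Rsad2.

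Markers of other cells moved in part with the 2 libraries at the extremes. The summed level of 9 neutrophil markers was 265 FPKM untreated, 417 with IFNg, 153 with IL4 and 218 to 354 with the other 5 stimuli. With IL4, 5 of the 9 were lower and none was higher, beside 11.9% and 9.86% of all compared genes. S100a8, at 119 FPKM untreated and 71.8 with IL4, stayed within 2-fold. With IFNg, 1 of the 8 measured was higher and none was lower, beside 10.7% and 12.7%. That marker was the defining Ly6g, at 1.88 FPKM untreated, 5.41 with IFNg and 0.111 with IL4. With the other 5 stimuli Ly6g was below untreated as well, from 0.114 FPKM with TGFb1 to 0.822 with CpG. Stromal markers, 7 in number, summed to 41.6 FPKM untreated, 87.9 with IFNg and 41.1 to 48.4 with the others, and 2 of them, Col1a1 and Col1a2, were higher with IFNg. The part of these markers, and of the shallower IFNg library, in the effectors' values was not tested.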

How the data were processed

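RNA-seq of 8 libraries, 1 per condition, was analysed from 14 tables. TopHat 1.3.1, Cufflinks 1.2.1, Cuffdiff 1.2.1 and the build mm9 are named in the submitters' processing notes. Whether counting used strand, and how many reads each library had, is not given in the sources used. The authors deposited FPKM with confidence bounds of unstated level for each stimulus and the untreated library, and, per the file headers, Cuffdiff q-values with a significance call. An FPKM is relative to a library total, so very abundant transcripts lower all others. Genes with a status other than OK (336 to 388 per table) were left out.

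Symbols were found for 31840 of 36806 identifiers. The 2-fold rule uses a pseudocount of 1 FPKM and a floor of 1 FPKM. No test was possible with 1 library per group, and no p-value was computed; the counting script was tested on simulated data. Levels in all 8 libraries are printed for the effectors highest and lowest with IFNg in each of 9 role groups, those highest and lowest with each stimulus, and any past 2-fold against the median, 23 in all. The genes, lists and rules were chosen with earlier results of these data known. The alternatives tried were 0.1 FPKM as the pseudocount, a floor at 5 FPKM or none, centring on the median gene, the other 6 stimulated libraries as reference, and the added conditions of the authors' call or of separate bounds. Coordinates are in mm9, counted from 1, except those of promoters. Python 3.11.15, numpy 2.4.6, pandas 2.3.3 and matplotlib 3.10.9 were used.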

Additional observations from a re-analysis of the deposited data

How the results depend on the processing

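Of 133 recomputed counts and medians, 118 stayed within 1.5 times the reported count or within the margin set for a median, none reversed, and 15 moved. The margin for a median was taken from the authors' deposited upper bounds. It was wide, from 0.51 log2 with IL1b to 0.65 with IFNg, and no median passed it. Many of the counts were 0 under every setting, so the 118 are weak support. When the authors' deposited bounds also had to lie apart, 11 effectors were higher with IFNg in place of 27, 13 were lower with TGFb1 in place of 20, 3 with MALP2 in place of 9 and 1 with CpG in place of 2, and TNFa had 1 higher and 1 lower. When the authors' deposited call was also required, TNFa had 1 higher and 1 lower. With the other 6 stimulated libraries as the reference, none was lower with TNFa (0 in place of 2), 1 was lower with IL1b, 4 with MALP2 and 0 with CpG, and 1 was higher with CpG. Centred on the median gene, CpG had 1 higher and 0 lower. The cause was not tested. The median change ran from 1.41 to 1.96 with IFNg, -1.74 to -1.26 with IL4 and -1.06 to -0.90 with TGFb1 over 5 alternatives each. It ran from 0.01 to 0.56 with TNFa and 0.01 to 0.57 with CpG, the higher values coming from the other stimulated libraries as the reference. These 2 shifts counted as staying, since the margins were 0.58 and 0.61. Of 546 recomputed changes of single genes, 7 moved by more than the margin allowed, all with a pseudocount of 0.1 FPKM; Ifi44 with IL4, for example, went from -2.12 to -3.21. Centring turned the sign of 12 of 273 single values, none of them above 0.09 in size. No paired analysis was possible because each condition has 1 library. Depth limits the effectors of low FPKM, such as Oas1b and Samd9l, above all in the IFNg library, where 1 fragment weighs 2.04 times as much as untreated.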
